A study of Homo sapiens with 12 samples.

Results

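The cytosolic ribosomal protein genes were followed in 2 human cancer cell lines, each grown in 3D and in 2D. They were taken as every gene symbol in the deposited tables that starts with RPL or RPS, goes on with a number and at most the letters A, X or L and 1 more digit, together with RPLP0, RPLP1, RPLP2 and RPSA. This rule uses no measured value and found 85 of 27968 genes, 53 of the large and 32 of the small ribosomal subunit. A total of 84 members had enough counts to be tested among 15304 genes, and RPL3L, a paralog known from heart and skeletal muscle, had 0 counts in every library and was not tested. The 8 paralogs among the members are described apart from the rest, and pseudogenes beside them, because reads can be shared with near copies.

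The series set out to profile genes that respond to the extracellular matrix in cancer cells. A549 cells derive from a lung adenocarcinoma, and MDA-MB-231 cells from a triple-negative breast cancer. The groups were A549 3D, grown in Matrigel (a basement membrane extract rich in laminin) with RNA taken on day 4, A549 2D, kept in DMEM supplemented with 10% FBS until roughly 80% confluent, and MDA-MB-231 3D and MDA-MB-231 2D, grown in the same ways, with 3 libraries each. The labels give 10% FBS for every library, 3D and 2D alike. No genetic change or drug was named for any group, and all libraries were made from total RNA with a stranded kit that depletes ribosomal RNA.

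Sequencing depth, as summed expected counts, was 5609327 in the shallowest and 28171901 in the deepest library, and both extremes were A549 3D libraries. Of the markers chosen for A549, AKR1B10 had means of 10651 TPM in 3D and 3859 TPM in 2D, against 0.217 and 0.280 TPM in the MDA-MB-231 cultures. Of those chosen for MDA-MB-231, VIM averaged 3672.5 CPM in 3D and 2654.4 CPM in 2D. In A549, VIM averaged 690 CPM in 3D and 1003 CPM in 2D, so it is not particular to MDA-MB-231. The other markers of the lines are not reported here. Of 6 leukocyte markers, CD3E was listed at 0 and PTPRC averaged at most 0.273 TPM in any group, but CD14 and CD68 were well above this and moved with culture. LYZ also had a higher mean in MDA-MB-231 3D than in any other group. CD14 averaged 12.4 TPM in A549 3D, against 1.88 TPM in A549 2D, and 19.8 TPM in MDA-MB-231 3D, against 2.90 TPM in MDA-MB-231 2D. CD68 averaged 10.2 TPM in A549 3D, against 2.89 TPM in A549 2D, and 240 TPM in MDA-MB-231 3D, against 134 TPM in MDA-MB-231 2D. The summed level of the 6 markers was 16.8 to 29.1 TPM in A549 3D libraries, against 4.55 to 5.07 TPM in A549 2D libraries, and 247 to 274 TPM in MDA-MB-231 3D libraries, against 129 to 148 TPM in MDA-MB-231 2D libraries. The 5 fibroblast markers summed to at most 4.79 TPM in any library, with DCN listed at 0, the 4 endothelial markers to at most 5.65 TPM and the 4 erythroid markers to at most 0.39 TPM. The part of these markers in the results below was not tested. A549 3D stood apart. Its biological coefficient of variation over all genes was 0.179, against 0.0368 to 0.0563 in the other groups, and its first library had 16.5% of its counts on ribosomal RNA genes. Nothing in the labels ties the 3 libraries of a group to separate cultures, and the p-values therefore reflect the spread among libraries, which may be technical. The fit used an estimate of spread per gene that all groups share, so p-values and standard errors for A549 3D do not measure its own wider spread. In bulk RNA, a change in the mix of cell states and a change in RNA per cell cannot be told apart.

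Ribosomal proteins are made in matching amounts and assembled with ribosomal RNA in the nucleolus into the large subunit, which joins amino acids, and the small subunit, which reads the messenger. Their messengers start with a C followed by an unbroken run of pyrimidines, the 5′ terminal oligopyrimidine motif, through which mTORC1 and the RNA-binding protein LARP1 control their translation and stability. Several members have paralogs that are made in few tissues or at low level, and RPSA was first described as a precursor of a laminin receptor.

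The starts of 9 genes that the results below turn on are shown, 2 of which have no long run of C and T in the window. Each line gives 30 bases, 12 before the annotated gene start and 18 from it on, read 5′ to 3′ along the gene from RefSeq on GRCh38.p14, with the longest run of C and T in capitals. The first 6 genes are those with large changes in one of the lines or large differences between them, and the last 3 are paralogs.
RPL10: gcggaggagcgCCTCTTTCCCTTCggtgtg
RPS19: aaccccgtcgTTCCCTTTCCCCTggctggc
RPLP2: cgtcggcgCCTTCCTTTTCCTCCCTgtcgc
RPL18: ccagcccgTTCTCTCTTTCCggacctggcc
RPS21: gactagctgCTTCCTTTCTCTCTCgcgcgc
RPS16: gcccctagCTTTCCTTTTCCggttgcggcg
RPL22L1: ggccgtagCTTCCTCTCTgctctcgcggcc
RPS27L: ttgatgccgagcgcagatcgCTTgcagctt
RPL7L1: aagtgcggcgCCgtagctaggagcggacgc
The windows lie at chrX:154398365-154398394 on the plus strand for RPL10, chr19:41860243-41860272 on the plus strand for RPS19, chr11:809955-809984 on the plus strand for RPLP2 and chr19:48619161-48619190 on the minus strand for RPL18. They lie at chr20:62387091-62387120 on the plus strand for RPS21, chr19:39435932-39435961 on the minus strand for RPS16 and chr3:170870178-170870207 on the minus strand for RPL22L1. RPS27L lies at chr15:63157460-63157489 on the minus strand and RPL7L1 at chr6:42879604-42879633 on the plus strand. RPS27L and RPL7L1 have no long run in this window, whereas RPL22L1 has one. Of the 85 members, 68 were found by symbol in the RefSeq table. A run of at least 8 C or T was present in 56 of these 68 windows (82.4%), against 4349 of 27305 genes in the table (15.9%). The run could lie anywhere in the window, and of several entries for a symbol the entry with the longest run was kept. A run counted here is thus not the terminal motif itself, and a gene without a run may still have the motif. The run was present in 54 of 62 members that are not paralogs and in 2 of 6 paralogs.

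Levels were compared between genes in TPM, which is scaled to transcript length. Together the members made up 8.97 ± 1.10% of TPM in A549 3D, against 13.1 ± 0.07% in A549 2D (SD, n = 3 each). In MDA-MB-231 they made up 21.7 ± 0.33% in 3D, against 18.5 ± 0.30% in 2D. The groups of neither line overlapped, and the order of the cultures was opposite in the 2 lines. Small RNA genes took 49.3 ± 5.1% of TPM in A549 3D, against 33.8 ± 1.0% in A549 2D, and at most 3.69% in any MDA-MB-231 library. With small RNA genes left out of the total, the members made up 17.7 ± 0.83% in A549 3D, against 19.8 ± 0.23% in A549 2D. The same share in MDA-MB-231 was 22.3 ± 0.35% in 3D, against 18.6 ± 0.30% in 2D. As a share of expected counts the members made up 4.60%, 5.64% and 5.81% in A549 3D libraries, against 6.19%, 6.09% and 6.01% in A549 2D libraries, so that every A549 3D library lay below every 2D library. With small RNA genes left out of the total, chosen after seeing the data, this order did not hold, with 5.97%, 6.42% and 6.43% of counts in A549 3D libraries, against 6.32%, 6.20% and 6.14% in A549 2D libraries. In MDA-MB-231 the share of counts was 6.54 ± 0.08% in 3D and 4.76 ± 0.08% in 2D, and without small RNA genes it was 6.88 ± 0.03% in 3D and 4.82 ± 0.08% in 2D. The lowest share in A549 3D, 4.60%, belonged to the library with 16.5% of its counts on ribosomal RNA genes. The part of small RNA and ribosomal RNA in these sums was not tested beyond the shares without small RNA genes.

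**Figure D1:**
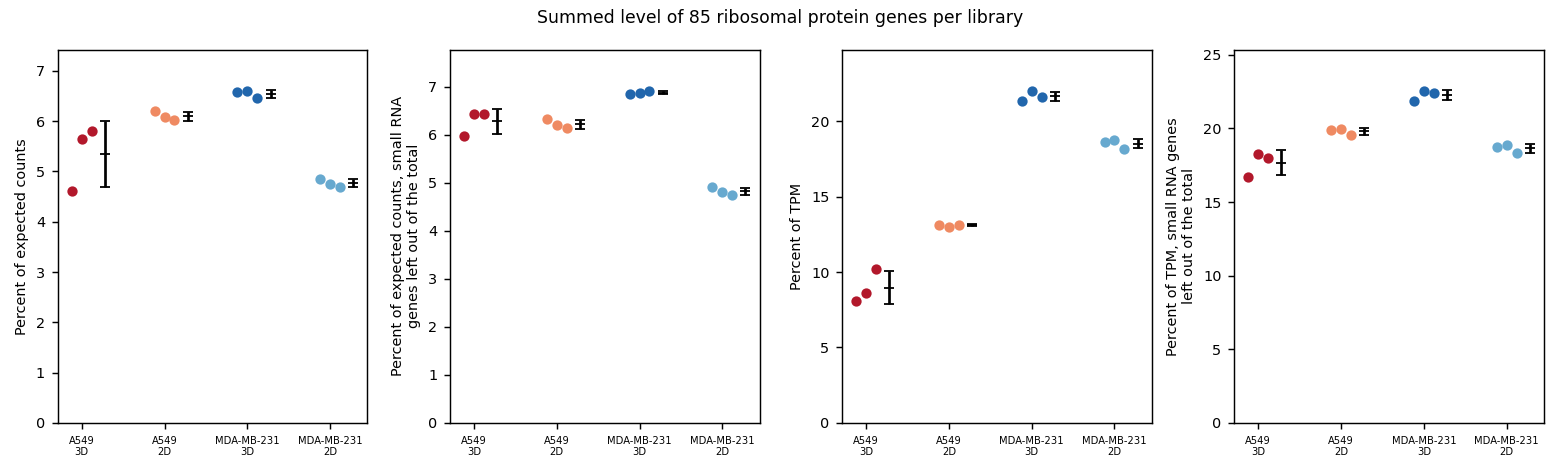
Summed level of the 85 ribosomal protein genes in each of the 12 libraries (points) with the group mean ± SD (error bars), as percent of expected counts and of TPM, each also with small RNA genes left out of the total. The MDA-MB-231 3D libraries lie above the 2D libraries on all 4 scales, and the A549 3D libraries lie below the 2D libraries on 3, but at 5.97% to 6.43% they overlap the 2D libraries as a share of counts without small RNA genes.

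The most abundant member by the mean of the 4 groups was RPS18, a protein of the head of the small subunit. It reached 18684 ± 2713 TPM in MDA-MB-231 3D, against 12836 ± 2616 TPM in MDA-MB-231 2D, and ranked first among the members in both. In A549 it ranked 8 in both cultures, at 2032 ± 586 TPM in 3D and 3034 ± 235 TPM in 2D. The effective length deposited for RPS18 ranged from 144 to 356 bases between libraries, which bears on its TPM and not on its counts. In A549 the highest member was RPS19 in 3D, at 3908 ± 521 TPM, and RPL41, the shortest ribosomal protein, in 2D, with a mean of 5783 TPM. The lowest tested members were the paralogs RPL10L, at a mean of 0.615 TPM over the 4 groups, RPL22L1 at 51.6 TPM and RPL39L at 59.8 TPM.

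In MDA-MB-231, nearly the whole set was higher in 3D than in 2D. Under edgeR's quasi-likelihood test on TMM-scaled counts, with Benjamini-Hochberg adjustment over all genes and a threshold of 0.05, 75 of 84 tested members rose, against 33.4% of all genes tested. The members that fell were 2, RPL10L and RPS27L, against 34.2% of all genes. RPL10L had counts in MDA-MB-231 2D alone and passed the filter through that group, so its call follows from the filter and is no support. The median log2 fold change was 0.71 over the members (quartiles 0.42 and 1.04) and 0.00 over all genes tested. Without the paralogs, 73 of 77 rose and 0 fell by this test, and DESeq2 called 74 of the 84 higher and 2 lower. On log2(TPM + 1) with limma, 37 rose and 9 fell, against 16.5% and 48.9% of all genes, with a median of 0.23 over the members and -0.25 over all genes. Once a smooth trend in GC content and gene length was removed from each library, an alternative chosen after seeing the data, the members' median was 0.38 and 58 rose while 3 fell, against 33.6% and 24.5% of all genes. The estimated mean fragment length was 184 bases in MDA-MB-231 3D, against 212 bases in 2D, and its part in the changes was not tested.

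After RPL21, whose reads are shared with pseudogenes, the largest rise was in RPL10, which joins the large subunit last and reaches toward the site where peptide bonds are formed. RPL10 had 1263, 1342 and 1394 CPM in MDA-MB-231 3D libraries, against 435, 474 and 425 CPM in MDA-MB-231 2D libraries. The lowest 3D library was above the highest 2D library by a wide margin, and the log2 fold change was 1.58 ± 0.08 (SE, adjusted p = 6.8e-10 by edgeR). RPL18, another large subunit protein, had 459, 453 and 483 CPM in 3D and 185, 183 and 163 CPM in 2D, a log2 fold change of 1.39 ± 0.08. Neither gene had overlapping groups, but the genes named for the largest changes, here and below, were picked among members without overlap.

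The 4 genes of the stalk, the flexible arm of the large subunit that calls in elongation factors, all rose in MDA-MB-231, against 33.4% of all genes tested, with a median log2 fold change of 1.10. RPLP2 had 346, 376 and 471 CPM in 3D and 179, 133 and 137 CPM in 2D (1.41 ± 0.14, adjusted p = 2.8e-07 by edgeR). RPLP1 rose by 1.17 ± 0.09, RPLP0, which anchors the RPLP1 and RPLP2 dimers, by 1.04 ± 0.07, and RPL12 at the stalk base by 0.50 ± 0.08 on the log2 scale. The groups did not overlap for any of them, but the share of all genes without overlap was not counted, so this is a description. With the GC and length trend removed RPL12 was at -0.04 and did not pass. RPL5 and RPL11, which carry 5S ribosomal RNA into the large subunit and bind MDM2 when assembly fails, rose less, by 0.26 ± 0.09 and 0.57 ± 0.09, and RPL5 was at -0.19, not passed, on log2(TPM + 1). Of 9 genes for proteins around the tunnel through which the new chain leaves, 8 rose, with a median of 0.53. On log2(TPM + 1) 2 of the 9 rose and 1 fell, against 16.5% and 48.9% of all genes. RPL22 did not pass, at 499 ± 27.8 CPM in 3D and 541 ± 27.2 CPM in 2D.

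In the small subunit of MDA-MB-231, RPS19, a protein of the head that is often mutated in Diamond-Blackfan anaemia, had 575, 511 and 539 CPM in 3D and 200.1, 206 and 201 CPM in 2D. RPS15, also in the head, had 272, 275 and 272 CPM in 3D and 103, 116 and 101 CPM in 2D. The groups were far apart in both genes, with log2 fold changes of 1.42 ± 0.08 and 1.36 ± 0.09 (SE). All 3 proteins at the channel where the messenger enters (RPS2, RPS3 and RPS9) rose, against 33.4% of all genes tested, with a median of 1.19. So did all 4 of the beak (RPS3, RPS10, RPS12 and RPS27A), with a median of 0.72, and all 4 of the platform and messenger exit, with a median of 1.02. RPSA, which sits near the messenger exit, had 1593, 1596 and 1599.9 CPM in 3D and 919, 967 and 943 CPM in 2D, a log2 fold change of 0.76 ± 0.07. RPS6, the substrate of S6 kinase, rose by 0.52 ± 0.08. The genes mutated in Diamond-Blackfan anaemia rose in 10 of 11 cases with a median of 0.33. On log2(TPM + 1) their median was -0.15, against -0.25 over all genes. On that scale 2 rose and 2 fell, against 16.5% and 48.9% of all genes.

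**Figure D2:**
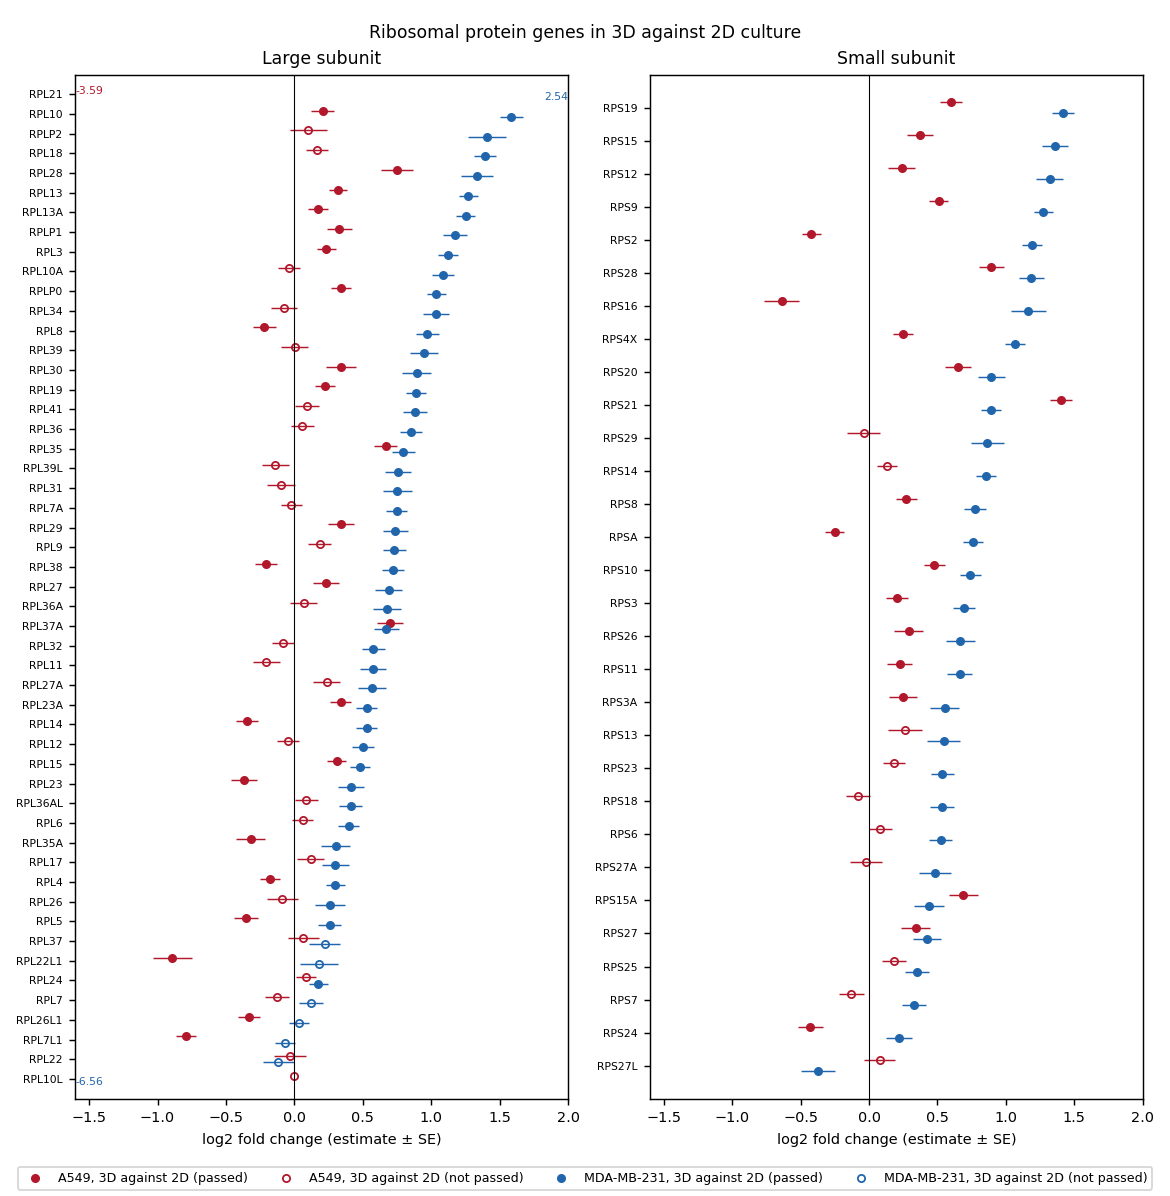
Log2 fold change (estimate ± SE, edgeR on TMM-scaled counts) of the tested members in 3D against 2D, a few not shown, for A549 (red) and MDA-MB-231 (blue), large subunit left and small subunit right, sorted by the MDA-MB-231 change, with filled points for genes that passed the adjusted threshold of 0.05. The MDA-MB-231 points lie right of 0 for nearly all members, the A549 points spread around 0 on this scale and shift below 0 under TPM or a GC and length trend, and values beyond the axis (RPL21 at -3.59 in A549 and 2.54 in MDA-MB-231, RPL10L at -6.56 in MDA-MB-231, a fitted value that depends on the prior count because its 3D libraries had 0 counts) are printed as numbers.

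In A549 the direction of the set depended on the scale. With TMM-scaled counts, 31 of 84 members were higher in 3D and 16 lower by edgeR's test, against 34.1% and 31.5% of all genes tested, with a median log2 fold change of 0.10 over the members (quartiles -0.09 and 0.27) and 0.03 over all genes. On log2(TPM + 1) with limma, 1 was higher and 73 lower, against 15% and 56.4% of all genes, with a median of -0.54 over the members and -0.38 over all genes. With the GC and length trend removed, 6 were higher and 64 lower, with medians of -0.47 and -0.10, against 30% and 40.5% of all genes. Without the A549 3D library rich in ribosomal RNA, the TMM-scaled counts gave 39 higher and 14 lower, against 32.3% and 30.7% of all genes. With only the A549 libraries in the fit, 25 were higher and 12 lower, against 30.9% and 27.4% of all genes. Estimated fragments averaged 137 bases in A549 3D, against 180 bases in A549 2D, and their part in these changes was not tested.

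By role, on TMM-scaled counts, A549 showed 2 of 4 stalk genes higher (RPLP0 and RPLP1), 3 of 4 beak genes higher, 2 of 4 platform genes higher (RPS26 and RPS28) and none of these lower, against 34.1% and 31.5% of all genes tested. At the tunnel 3 of 9 were higher (RPL19, RPL23A and RPL35) and 1 lower (RPL4), and at the messenger entry RPS3 and RPS9 were higher and RPS2 lower. Of the 11 genes mutated in Diamond-Blackfan anaemia, 4 were higher and 4 lower, which is near the share of all genes. The median log2 fold changes of these groups ran from -0.13 to 0.23 on this scale. All were below 0 on log2(TPM + 1) and with the GC and length trend removed, where all genes had medians of -0.38 and -0.10. The 2 genes of the 5S particle had a median of -0.28, and both were lower on those 2 scales.

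**Figure D3:**
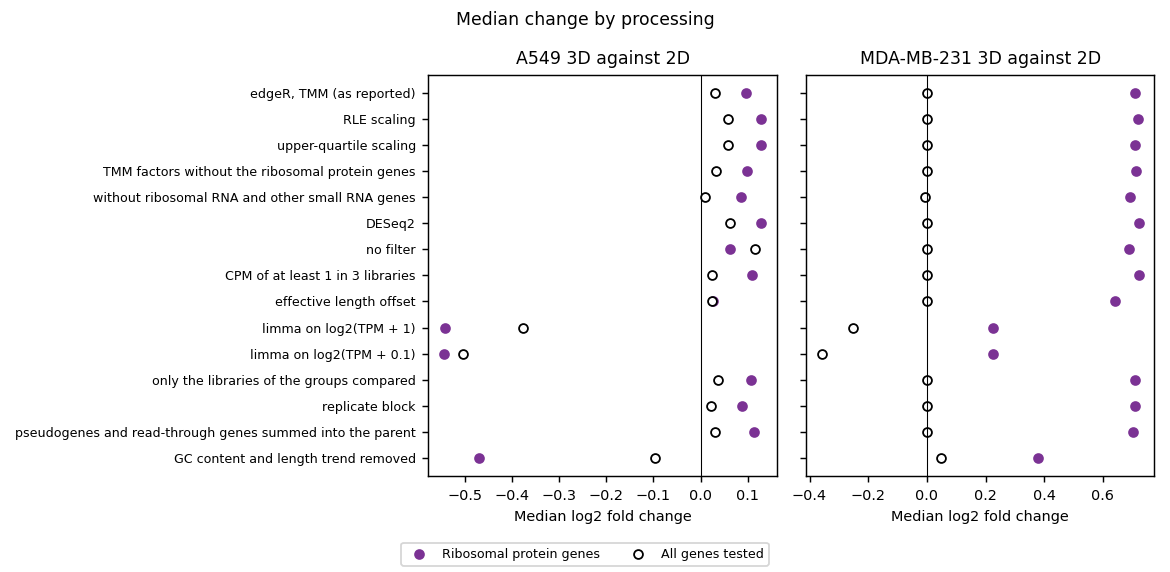
Median log2 fold change of the ribosomal protein genes (filled) and of all genes tested (open) in 3D against 2D for A549 (left) and MDA-MB-231 (right) under each way of scaling and testing. In MDA-MB-231 the members' median lies above that of all genes in every setting shown, while in A549 it lies near that of all genes in most settings and falls to -0.54 on log2(TPM + 1), where that of all genes falls to -0.38, and to -0.47 without the GC and length trend, where that of all genes is -0.10.

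RPS21, a small subunit protein, was the member whose rise in A549 held on each of these scales. It had 238, 259 and 252 CPM in A549 3D libraries and 101, 90.2 and 92.4 CPM in A549 2D libraries. The groups were far apart, with a log2 fold change of 1.40 ± 0.08 (SE, adjusted p = 4.4e-10 by edgeR), 0.61 on log2(TPM + 1) and 0.26 with the GC and length trend removed. RPS28, near the messenger exit, had 143, 148 and 143 CPM in 3D and 77.8, 77.8 and 78.0 CPM in 2D, a log2 fold change of 0.89 ± 0.09, against 0.09, not passed, on log2(TPM + 1) and -0.29 with the trend removed. RPL28, which has no counterpart in budding yeast, had 319, 237 and 297 CPM in 3D and 185, 156 and 168 CPM in 2D, a change of 0.75 ± 0.12, against 0.44 with the trend removed and -0.10 on log2(TPM + 1). RPL37A at 0.70 ± 0.09, RPS15A at 0.69 ± 0.11 and RPLP1 at 0.33 ± 0.09 under TMM scaling were below 0 on both other scales. The median over all genes in A549 was itself -0.38 on log2(TPM + 1) and -0.10 with the trend removed. RPLP0 was at 0.34 ± 0.07, against -0.26 on log2(TPM + 1) and 0.04, not passed, with the trend removed.

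Other members were lower in A549 3D on all 3 scales. RPS16, whose tail reaches the transfer RNA in the small subunit, had 329, 227 and 315 CPM in A549 3D, against 490.1, 394 and 476 CPM in A549 2D. The groups did not overlap, and the log2 fold change was -0.64 ± 0.13 (SE, adjusted p = 3.8e-04 by edgeR) and -1.27 with the GC and length trend removed. RPS24 had 603, 715 and 736 CPM in 3D and 946, 989 and 831 CPM in 2D, a change of -0.43 ± 0.09. RPS2, at the messenger entry, had 1195, 1118 and 1130.2 CPM in 3D and 1554, 1454 and 1601 CPM in 2D, a change of -0.42 ± 0.07. RPL5 of the 5S particle fell by 0.36 ± 0.09 on the log2 scale, while RPL11 was at 475 ± 65.7 CPM in 3D and 547 ± 32.2 CPM in 2D and did not pass. RPSA had 1294, 1334 and 1452 CPM in 3D and 1640.2, 1618 and 1593 CPM in 2D, a change of -0.25 ± 0.07.

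The question whether the lines differed in their response was put to the difference of the changes, A549 minus MDA-MB-231. Of 83 members with a testable difference, 62 had a lower change in A549 and 2 a higher one by edgeR's test, against 27.7% and 30.4% of 14771 genes. The median difference was -0.61 on the log2 scale over the members and 0.06 over all genes. This direction held on the other scales, with 72 lower and 1 higher on log2(TPM + 1), against 33.1% and 28.6% of all genes, and 78 lower and 0 higher with the GC and length trend removed, against 36.7% and 21.3%. Without the A549 3D library rich in ribosomal RNA it was 60 lower and 3 higher, against 26.8% and 28.8% of all genes, with a median of -0.51.

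RPS16 and RPS2 had the largest differences after RPL21, and both ran in opposite directions in the 2 lines. RPS16 rose in MDA-MB-231, with 549.8, 545 and 607 CPM in 3D and 250.4, 282 and 228 CPM in 2D, and fell in A549, which gave a difference of -1.80 ± 0.18 (SE, adjusted p = 6.8e-07 by edgeR). RPS2 had 1609, 1661 and 1670.0 CPM in MDA-MB-231 3D, against 698, 754 and 716 CPM in MDA-MB-231 2D, and its difference was -1.61 ± 0.10. RPL10 had 1296, 1232 and 1462 CPM in A549 3D, against 1149, 1186 and 1126 CPM in A549 2D, a change of 0.21 ± 0.08 that was near the threshold (adjusted p = 0.036 by edgeR). With the GC and length trend removed it was 0.05 and did not pass, and on log2(TPM + 1) it was -0.37. The difference between the lines for RPL10 was -1.38 ± 0.12. The difference for RPLP2 was -1.30 ± 0.19. In all, 12 members passed as lower in A549 3D and higher in MDA-MB-231 3D on TMM-scaled counts (RPL4, RPL5, RPL8, RPL14, RPL21, RPL23, RPL35A, RPL38, RPS2, RPS16, RPS24 and RPSA), and the difference passed for all 12, from -0.48 for RPL4 to -6.12 for RPL21. On log2(TPM + 1) 5 of them (RPL4, RPL5, RPL23, RPL35A and RPS24) were below 0 in MDA-MB-231 as well, and with the GC and length trend removed all 12 kept their signs in both lines. A further 31 passed as higher in both lines and 32 as higher in MDA-MB-231 with no call in A549. The share of all genes tested with each of these pairs of calls was not counted, so the 12, 31 and 32 are descriptions.

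RPS21 and RPS27L were the members with a higher change in A549 on TMM-scaled counts. The difference was 0.51 ± 0.11 for RPS21 (adjusted p = 7.5e-04 by edgeR), but 0.02 and not passed with the GC and length trend removed. It was 0.45 ± 0.17 for RPS27L (adjusted p = 0.034 by edgeR), and -0.16, not passed, with the trend removed. The call for RPS27L was lost without library 2 or 3 of either 2D group or without library 1 or 3 of MDA-MB-231 3D, and the difference was 0.25 without library 2 of A549 3D. Across the 82 tested members other than RPL21 and RPL10L, the changes in the 2 lines had a Pearson correlation of 0.40 and a Spearman correlation of 0.43, given as a description because genes of a line share its libraries. With RPL21 and RPL10L included, the Pearson correlation over 84 members was -0.035.

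Reads of RPL21 cannot be assigned with confidence. RPL21 had 13.5, 0 and 12.6 CPM in A549 3D, against 111, 127 and 129 CPM in A549 2D, while MDA-MB-231 had 0, 14.3 and 5.0 CPM in 3D, against 0, 3.73 and 0 CPM in 2D. Its pseudogenes RPL21P28 and RPL21P44 together had 359 to 475 CPM in A549 3D, against 369 to 420 CPM in A549 2D, while MDA-MB-231 had 544 to 552 CPM in 3D, against 446 to 497 CPM in 2D. RPL21 itself thus received a small part of the reads in most libraries. Its changes of -3.59 ± 0.70 in A549 and 2.54 ± 1.01 in MDA-MB-231, where the groups overlap, are uncertain. So is its difference of -6.12 ± 1.20 between the lines. Summed with the pseudogenes, RPL21 had 372 to 475 CPM in A549 3D, against 498 to 533 CPM in A549 2D, while MDA-MB-231 had 544 to 558 CPM in 3D, against 449.9 to 497 CPM in 2D. The log2 fold change of that sum was -0.27 ± 0.09 in A549 and 0.23 ± 0.09 in MDA-MB-231, with a difference of -0.49 ± 0.12, and all 3 passed. The same caution holds for RPL13A, whose pseudogene RPL13AP5 had 1238 ± 107 CPM in A549 3D, against 1192 ± 73.4 CPM for RPL13A itself. Adding the counts of all pseudogenes and read-through genes to their parents, an alternative chosen after seeing the data, left 31 members higher and 16 lower in A549 and 75 higher and 2 lower in MDA-MB-231.

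**Figure D4:**
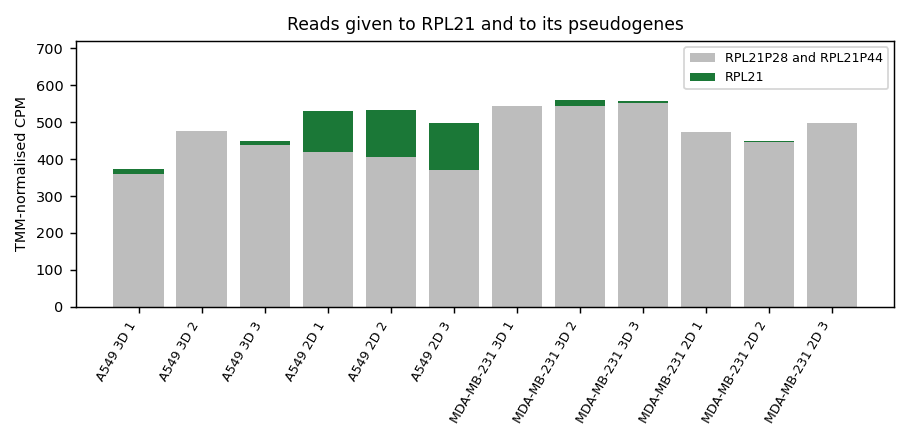
TMM-normalised CPM given to RPL21 (green) and to its pseudogenes RPL21P28 and RPL21P44 (grey) in each of the 12 libraries, stacked. RPL21 itself reaches 111 to 129 CPM in A549 2D and at most 14.3 CPM in every other library, while the pseudogenes hold 359 to 552 CPM.

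The paralogs are related to other members, some of them as near copies. In A549, 3 of 7 tested paralogs fell in 3D and 0 rose by edgeR's test, against 31.5% and 34.1% of all genes tested. In MDA-MB-231, 2 rose and 2 fell, RPL10L among them, against 33.4% and 34.2%, so the falls there are near the share of all genes. On log2(TPM + 1) 6 were lower in A549, against 56.4% of all genes, and in MDA-MB-231 1 rose and 4 fell, against 16.5% and 48.9%. RPL7L1 had 110.1, 117 and 128 CPM in A549 3D, against 212, 204 and 199.8 CPM in A549 2D, a log2 fold change of -0.79 ± 0.07 (SE, adjusted p = 1.7e-07 by edgeR). RPL22L1, the paralog of the tunnel protein RPL22, had 38.2, 64.5 and 53.2 CPM in A549 3D, against 96.0, 100.3 and 90.9 CPM in A549 2D, a change of -0.89 ± 0.14. For both genes every 3D library lay below every 2D library, and both were lower on TPM and with the GC and length trend removed. RPL26L1 fell by 0.33 ± 0.08 on the log2 scale. RPL22 itself had 301 ± 67.5 CPM in A549 3D, against 306 ± 13.4 CPM in A549 2D, and did not pass.

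In MDA-MB-231, RPS27L, a target of p53, had 37.9, 40.9 and 40.0 CPM in 3D and 48.9, 52.7 and 52.4 CPM in 2D, without overlap, a change of -0.37 ± 0.12 (SE, adjusted p = 0.014 by edgeR). With the GC and length trend removed it was -0.06 and did not pass. RPL10L, an intronless copy of RPL10 known from testis, had 0 counts in the MDA-MB-231 3D libraries together and 46 counts in the 2D libraries together, at least 10.8-fold lower in 3D when the 3D group is set to a floor of 3 counts. RPL10L had 0 counts in A549 and entered the test through MDA-MB-231 2D alone, so its fall is a description. RPL39L, a low-level paralog, rose, with 29.3, 27.3 and 28.6 CPM in MDA-MB-231 3D, against 17.2, 16.4 and 16.7 CPM in MDA-MB-231 2D (0.76 ± 0.09). RPL36AL, a near copy of RPL36A with which reads can be shared, rose by 0.41 ± 0.08 and was at -0.10 on log2(TPM + 1).

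**Figure D5:**
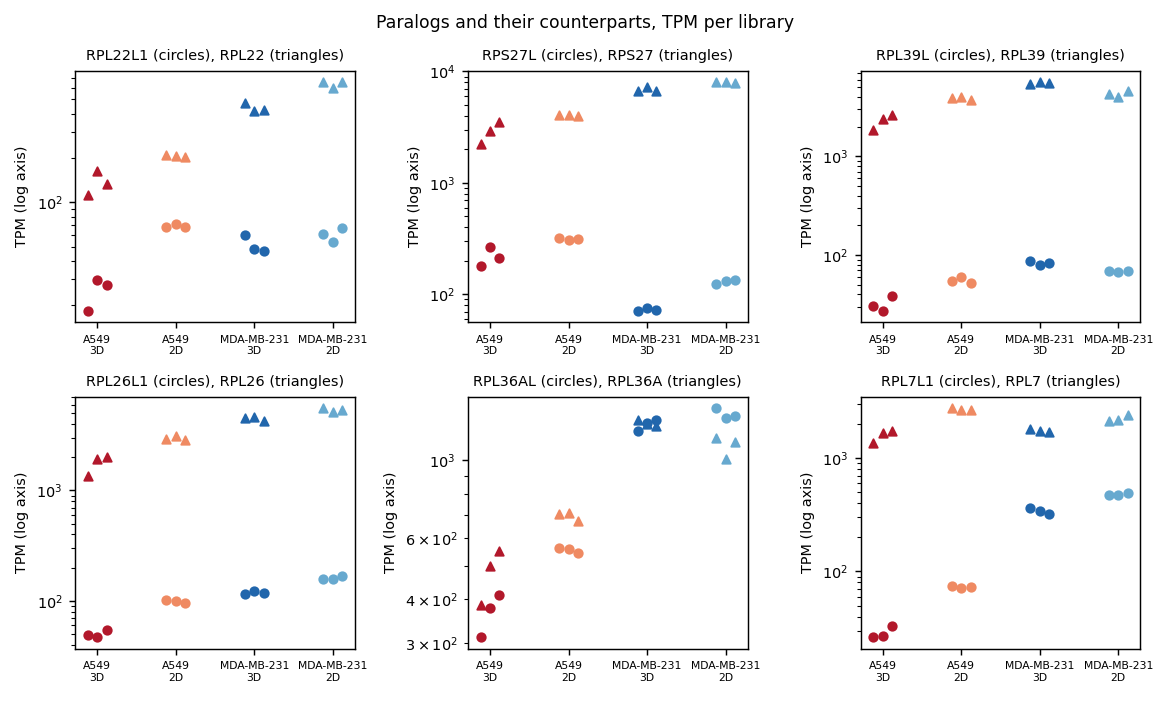
TPM (log axis) per library of 6 paralogs (circles) and their counterparts (triangles) in the 4 groups. RPL7L1 averages 28.8 TPM in A549 3D, against 72.7 TPM in A549 2D, RPS27L averages 73.4 TPM in MDA-MB-231 3D, against 129.9 TPM in MDA-MB-231 2D, and RPL36AL lies close to its counterpart RPL36A.

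Between the lines, the ribosomal protein genes differed gene by gene. The libraries of the lines differed as well. Small RNA genes took 49.3% of TPM in A549 3D, against 2.79% in MDA-MB-231 3D, and 33.8% in A549 2D, against 0.58% in MDA-MB-231 2D. Estimated fragments averaged 137 bases in A549 3D, against 184 in MDA-MB-231 3D, and 180 in A549 2D, against 212 in MDA-MB-231 2D. The part of both in the differences between the lines was not tested. In 3D, 18 members were higher and 43 lower in A549 than in MDA-MB-231 by edgeR's test, against 43.9% and 39.2% of all genes tested, with a median log2 fold change of -0.23 over the members and 0.10 over all genes. In 2D, 48 were higher and 21 lower, against 42.8% and 38.8% of all genes, with medians of 0.49 and 0.07. On log2(TPM + 1), 3 were higher and 75 lower in 3D, against 23.2% and 62.5% of all genes, and 14 were higher and 49 lower in 2D, against 20.8% and 62%. The members' median in 2D was -0.38 on that scale, which is 0.18 above that of all genes. With the GC and length trend removed, 9 were higher and 65 lower in 3D, against 38.5% and 46.9% of all genes, and 25 were higher and 40 lower in 2D, against 43.5% and 40.8%. RPS27L was higher in A549, with 196, 297 and 211 CPM in A549 3D and 37.9, 40.9 and 40.0 CPM in MDA-MB-231 3D, a log2 fold change of 2.56 ± 0.13 in 3D and 2.11 ± 0.12 in 2D, and in 3D 1.55 on log2(TPM + 1) and 1.92 with the GC and length trend removed. RPS19 had 2139, 1813 and 2064 CPM in A549 3D and 575, 511 and 539 CPM in MDA-MB-231 3D (1.89 ± 0.08), against 1.02 and 1.01 on those 2 scales, and its change was 2.71 ± 0.08 in 2D, against 1.64 with the trend removed. RPL13A was higher in A549 by 1.18 ± 0.07 in 3D and 2.26 ± 0.07 in 2D, with the caution on shared reads, but by 0.20 in 3D and 1.43 in 2D on log2(TPM + 1). RPL41 at 0.99 ± 0.09 and RPS20 at 0.97 ± 0.10 were higher in A549 3D on TMM-scaled counts, but -0.15 and -0.046 on log2(TPM + 1), and RPL41 was at -0.79 with the GC and length trend removed.

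RPL7L1 was lower in A549, with 110.1, 117 and 128 CPM in A549 3D and 773, 734 and 715 CPM in MDA-MB-231 3D, a log2 fold change of -2.64 ± 0.08 in 3D and -1.92 ± 0.07 in 2D. RPS18 (-1.48 ± 0.09 in 3D), RPS10 of the beak (-1.28 ± 0.08) and RPL14 (-1.26 ± 0.08) were also lower in A549 3D than in MDA-MB-231 3D. These values were further below 0 on log2(TPM + 1) and with the GC and length trend removed. RPS18 was at -3.23 and -3.46 on these scales and at -2.27 with an effective length offset. RPS10 was at -2.31 and -2.15, RPL14 at -2.27 and -1.74, and RPL7L1 at -3.53 and -2.74. The A549 and MDA-MB-231 libraries did not overlap for any of these genes, which was a condition for naming them. On TMM-scaled counts RPL10 had nearly the same level in the 2 lines in 3D, at 1330.2 ± 119 CPM in A549 and 1333 ± 65.8 CPM in MDA-MB-231, and did not pass there. In TPM, which depends on the total, it had 481 to 638 in A549 3D, against 1009 to 1073 in MDA-MB-231 3D. In 2D it had 1154 ± 30.0 CPM in A549 and 445 ± 25.8 CPM in MDA-MB-231, or 692 to 713 TPM in A549 and 449 to 494 TPM in MDA-MB-231.

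The large and the small subunit were compared as sets. In MDA-MB-231, 45 of 52 large subunit members rose and 1 fell, with a median log2 fold change of 0.71, and 30 of 32 small subunit members rose and 1 fell, with a median of 0.72, against 33.4% and 34.2% of all genes tested. In A549, 15 of 52 large subunit members were higher and 11 lower on TMM-scaled counts, with a median of 0.06, and 16 of 32 small subunit members were higher and 5 lower, with a median of 0.21, against 34.1% and 31.5% of all genes tested. With the GC and length trend removed, 37 large and 21 small subunit members rose in MDA-MB-231, with medians of 0.38 in both sets, against 33.6% of all genes. On that scale 40 large and 24 small subunit members were lower in A549, with medians of -0.52 and -0.40, against 40.5% of all genes. The log2 ratio of summed large to summed small subunit TPM was 0.26 ± 0.01 in A549 3D, against 0.36 ± 0.02 in A549 2D, without overlap (SD, n = 3 each). In MDA-MB-231 it was 0.23 ± 0.02 in 3D, against 0.24 ± 0.05 in 2D, with overlap. On expected counts in place of TPM the ratio was 0.548 ± 0.022 in A549 3D, against 0.594 ± 0.013 in A549 2D, a smaller gap. In MDA-MB-231 it was 0.682 ± 0.029 in 3D, against 0.680 ± 0.008 in 2D on that scale. These ratios are descriptions and were not tested.

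Members with and without a pyrimidine run anywhere in the window, which need not be the terminal motif, were set side by side. In MDA-MB-231, 54 of 56 members with a run rose and 0 fell, with a median log2 fold change of 0.73, and 8 of 12 without a run rose and 2 fell, with a median of 0.53, against 33.4% and 34.2% of all genes tested. In A549, 22 of 56 with a run were higher and 9 lower on TMM-scaled counts, with a median of 0.15, and 3 of 12 without a run were higher and 2 lower, with a median of 0.03, against 34.1% and 31.5% of all genes. Of the 12 members without a run, 4 are paralogs, and without paralogs all 8 such members rose in MDA-MB-231, with a median of 0.71, as did 53 of 54 with a run, with a median of 0.74. In A549, without paralogs, 3 of 8 without a run were higher and 0 lower, and 22 of 54 with a run were higher and 8 lower.

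Ribosomal proteins that the symbol rule does not catch also rose in MDA-MB-231. FAU, which encodes a fusion precursor of a ribosomal protein, rose by 1.05 ± 0.10 and RACK1, a scaffold of the small subunit, by 0.64 ± 0.07 on the log2 scale. In A549, FAU passed at 0.51 ± 0.10 on TMM-scaled counts, and RACK1 did not. Of 22 other messengers known to start with the pyrimidine motif, 11 rose and 5 fell in MDA-MB-231, against 33.4% and 34.2% of all genes tested, with a median of 0.27. Translation elongation genes were among those that rose, such as EEF2, which moves the ribosome along the messenger, at 1.07 ± 0.08, EEF1D at 1.08 ± 0.08 and EEF1G at 0.93 ± 0.08. In A549, 10 of the 22 were higher and 5 lower on TMM-scaled counts, against 34.1% and 31.5% of all genes, with a median of 0.15. NPM1, a nucleolar chaperone, was lower in both lines, at -1.31 ± 0.10 in A549 and -0.31 ± 0.10 in MDA-MB-231. EIF4A2, a helicase of translation initiation, was higher in A549 at 0.94 ± 0.14 and lower in MDA-MB-231 at -1.09 ± 0.14.

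Of 9 host genes of small nucleolar RNAs with such starts, 5 were higher and 3 lower in A549, with a median log2 fold change of 0.39, and 6 rose and 3 fell in MDA-MB-231, with a median of 0.32. Of all genes tested, 34.1% were higher and 31.5% lower in A549, and 33.4% higher and 34.2% lower in MDA-MB-231. SNHG1 fell in both lines, by 1.49 ± 0.10 in A549 and 0.83 ± 0.09 in MDA-MB-231 on the log2 scale, while GAS5 was higher in both, at 0.73 ± 0.10 in A549 and 0.32 ± 0.09 in MDA-MB-231. Of 12 dedicated chaperones and loading factors of ribosomal proteins, 9 fell and 1 rose in A549, against these 31.5% and 34.1%, with a median of -0.67, and 6 rose and 6 fell in MDA-MB-231, with a median of 0.00. BRIX1, needed for large subunit assembly, fell by 0.87 ± 0.09 in A549 and by 1.19 ± 0.08 in MDA-MB-231. RRS1, which helps to load the 5S particle, fell by 0.99 ± 0.10 in A549 and rose by 0.35 ± 0.10 in MDA-MB-231. TSR2, a chaperone of RPS26, was at -0.35 ± 0.11 in A549 and at 0.72 ± 0.10 in MDA-MB-231. NAP1L1, lower in both lines, is in this list and among the other messengers with the motif.

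Of 17 genes of mTORC1, LARP1 and S6 kinase, 7 were higher and 4 lower in A549, with a median log2 fold change of 0.14, against 34.1% and 31.5% of all genes tested. In MDA-MB-231 10 rose and 4 fell, with a median of 0.37, against 33.4% and 34.2%. DDIT4, an inhibitor of mTORC1, had 396 ± 45.5 CPM in A549 3D, against 97.3 ± 3.75 CPM in A549 2D, while MDA-MB-231 had 211 ± 5.17 CPM in 3D, against 32.3 ± 1.93 CPM in 2D. It rose by 2.02 ± 0.09 in A549 and 2.71 ± 0.09 in MDA-MB-231. DEPTOR, another inhibitor, was higher in A549 at 2.05 ± 0.18, and RPTOR, the scaffold of the complex, in MDA-MB-231 at 1.44 ± 0.14. RPS6KB1, an S6 kinase, fell in both lines, by 1.15 ± 0.12 in A549 and 0.68 ± 0.12 in MDA-MB-231. LARP1 did not pass in A549 or MDA-MB-231. The genes outside the members were fitted on TMM-scaled counts and were not followed on the other scales. Among 6 genes of the MDM2 and p53 axis that the 5S particle touches, 4 were higher and 0 lower in A549, and 3 rose and 3 fell in MDA-MB-231, against the same shares of all genes. CDKN1A, a cell cycle inhibitor, was higher in both, at 1.41 ± 0.16 and 1.30 ± 0.16, while MDM2 fell by 0.86 ± 0.08 in MDA-MB-231 and was at 0.07 ± 0.07, not passed, in A549.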

How the data were processed

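The authors deposited RSEM gene results for 12 libraries, per the submitters' processing notes, which name hg19. No label or header used here names the RSEM version, aligner, annotation or strand setting. Expected counts, as deposited, are estimates that split reads between genes that share them. TPM values, as deposited, are scaled to effective length and library total. Columns of other series numbered 0.

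Expected counts were rounded to whole numbers, kept by filterByExpr (15304 of 27968 genes), scaled by TMM (factors 0.809 to 1.129) and fitted as 4 group means over 12 libraries with edgeR 4.0.16's quasi-likelihood test in R 4.3.3, two-sided, with Benjamini-Hochberg adjustment over all genes tested. CPM values are TMM-normalised. No set test was made. The members and gene lists were chosen with earlier results of these data known. In each of the 5 comparisons, the named genes were up to 5 members per direction with the largest change whose groups did not overlap, without the overlap condition for the difference between lines. Lack of overlap in genes named this way is therefore part of the choice and not a result. Paralogs and their counterparts, stalk and 5S particle genes, RPSA, RPS6, RPS19, the 3 highest and the 3 lowest tested members by TPM and up to 4 genes of each other list were added. A few members and related genes entered every fit and count but are not reported here by name. The genes of opposite direction, the genes called within each role and LARP1 were named after their values were seen.

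The floor for a group at 0 is 3 counts over the group, and it covers counting error only. The test was also run on simulated counts drawn with the same spread in every group. That run does not cover the wider spread of A549 3D, and its outcome is not used here as support. Chi-square per degree of freedom between libraries of a group was 2.60 to 150, more than counting noise, which does not show that they came from separate cultures. Alternatives were RLE and upper-quartile scaling, other filters, DESeq2 1.42.0, limma 3.58.1 on log2(TPM + 1) and log2(TPM + 0.1), an effective length offset, TMM factors without the members, removal of small RNA genes, fewer libraries and a replicate block. Pseudogenes summed into parents, the members' share of counts without small RNA genes and a GC content and length trend, fitted per library with splines on genes that are not members, were added after seeing the data. GC content came from GENCODE v29 transcripts of the same symbol, found for 84 of 84 tested members and 14767 of 15304 genes. Median GC content was 49.6% over the members and 50% over all genes tested.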

Additional observations from a re-analysis of the deposited data

Results flagged for a closer look

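The change in 3D differed between the lines by a test of the difference itself (A549 minus MDA-MB-231, edgeR, adjusted p under 0.05) for 62 members with a lower change in A549 and 2 with a higher one. The higher ones were RPS21, with a difference of 0.51 on the log2 scale, and RPS27L, with 0.45, and neither passed once the GC and length trend was removed. Among the lower ones, RPL21 had a difference of -6.12, which was -0.49 once its pseudogenes were summed in. RPS16 had -1.80, RPS2 -1.61, RPL10 -1.38 and RPLP2 -1.30, and with the GC and length trend removed these were -1.75, -1.19, -1.21 and -1.35. With 3 libraries a group, single libraries were not screened for outliers.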

How the results depend on the processing

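The counts moved most with the scale in A549 and in A549 against MDA-MB-231 in 2D. The cause was not tested. With limma on log2(TPM + 1) the members higher and lower were 1 and 73 in A549, 37 and 9 in MDA-MB-231, 3 and 75 between the lines in 3D and 14 and 49 in 2D, and 1 had a higher difference of changes. With log2(TPM + 0.1) they were 1 and 72, 37 and 9, 3 and 75, 14 and 49, and 1. The median over all genes on log2(TPM + 1) was -0.38, -0.25, -0.64 and -0.56, and the members' median relative to it -0.17, 0.48, -0.63 and 0.18. With log2(TPM + 0.1) these were -0.50, -0.36, -0.83 and -0.70, and -0.039, 0.59, -0.44 and 0.32. The members' median turned to -0.54 in A549 and to -0.38 between the lines in 2D. With both pseudocounts these members turned in A549: RPL28 to -0.10, RPL37A to -0.082, RPS15A to -0.031, RPL36AL to -0.60, RPS27L to -0.54, RPL3 to -0.36, RPL10 to -0.37, RPL36A to -0.55, RPL39 to -0.78, RPS27 to -0.52, RPLP0 to -0.26, RPLP1 to -0.38, RPLP2 to -0.63 and RPS6 to -0.55. In MDA-MB-231 RPL26L1 turned to -0.44, RPL36AL to -0.10, RPL7 to -0.35, RPL26 to -0.25, RPS27 to -0.21 and RPL5 to -0.19, and between the lines in 3D RPL41 to -0.15 and RPS20 to -0.0464, or -0.0465 with the smaller pseudocount.

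With the GC and length trend removed, chosen after seeing the data, members higher and lower were 6 and 64 in A549, 9 and 65 between the lines in 3D and 25 and 40 in 2D, and 0 had a higher difference of changes. The median turned to -0.47 in A549 and -0.10 between the lines in 2D. RPS28 turned to -0.29, RPL37A to -0.37, RPS15A to -0.24, RPL36AL to -0.63, RPS27L to -0.21, RPL3 to -0.012, RPL36A to -0.36, RPL39 to -1.04, RPS27 to -0.88, RPLP1 to -0.56, RPLP2 to -0.81, RPS6 to -0.39 and RPS19 to -0.069 in A549. RPL7L1 turned to 0.38, RPL26L1 to -0.33 and RPL12 to -0.039 in MDA-MB-231, RPS27L to -0.16 in the difference of changes and RPL41 to -0.79 between the lines in 3D.

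A filter at a CPM of 1 in 3 libraries left 1 lower member in MDA-MB-231, because RPL10L was no longer tested. Leaving out each library in turn gave 22 to 39 higher and 11 to 19 lower in A549, 69 to 73 and 2 in MDA-MB-231, 1 to 3 and 59 to 68 for the difference, 16 to 22 and 41 to 44 between the lines in 3D and 48 and 18 to 21 in 2D. The replicate block, run although same-numbered libraries had correlations of only -0.14 to 0.09, gave 24 and 13 in A549 and 73 and 2 in MDA-MB-231. Fits on only the libraries of the groups compared gave 25 and 12 in A549 and 77 and 2 in MDA-MB-231. With expected counts in place of TPM the 3D minus 2D change of the log2 large to small ratio in MDA-MB-231 was 0.0022, with the sign turned. With small RNA genes out of the count total, chosen after seeing the data, the 3D minus 2D difference of the summed level in A549 turned to 0.053 percentage points. RPL10 in A549 and RPL26 in MDA-MB-231 lay near the threshold and lost their calls under several alternatives. RSEM's split of shared reads, 3 libraries a group and the wide spread in A549 3D limit these results.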
